A study of Mus musculus with 46 samples.

Results

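The adult hemoglobin genes Hba-a1, Hba-a2, Hbb-bs and Hbb-bt and the heme synthesis gene Alas2 were looked up in 46 RNA-seq libraries of mouse SVZ tissue and sorted myeloid cells. The 5 genes were chosen by symbol, for the higher FPKM of hemoglobin genes in SVZ tissue at 5 day recovery than in the other SVZ groups, so the members' values in that contrast are a description and carry no test. Of the 5 genes, 4 had a row in at least 1 of the 3 FPKM tables, which together list 21231 genes. The expression of Hbb-bt was not analysed here, and only its sequence was read. The SVZ table listed Hba-a1, Hba-a2, Hbb-bs and Alas2 among 15695 genes, and all 4 passed the expression limit for tests, 1 FPKM or more in 3 or more libraries, which left 14151 genes. The WM/LPS table listed only Alas2, which was under the limit. The GLOBAL table listed the same 4 genes as the SVZ table, and all but Alas2 passed the limit.

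The mice were male C57BL/6 animals, about 2 months old in the study's legends and 1.5 months in its methods. PLX3397, which blocks the CSF1 receptor that keeps microglia alive, was mixed into the chow at 600 ppm. The SVZ, the germinal tissue lining the lateral ventricles, was dissected as a thin layer without the septum from control mice, after 14 day PLX3397, and after 14 day PLX3397 followed by 5 day recovery on control chow (n = 5 libraries each). In the WM/LPS experiment, CD11b+CD45int cells were sorted from whole hemispheres of control mice, with 3 libraries at 0 hr, 5 at 6 hr and 4 at 24 hr after LPS. The same cells were sorted from mice with WM repopulation (14 day PLX3397 and 28 days of recovery, n = 4 at each time), and LPS was injected intraperitoneally at 0.33 mg/kg. In the GLOBAL experiment, the same gate was sorted from control mice (n = 4) and from mice with GLOBAL repopulation (7 day PLX3397 and 28 days of recovery, n = 3). The labels call all 46 samples cortex, whereas the methods name SVZ tissue and sorted cells. The neuroblast gene Dcx had 2.81 ± 0.126 FPKM in SVZ control (SD, n = 5) and a mean of at most 0.471 FPKM in any group of sorted cells, and the summed level of 12 microglia markers was 22920 to 32130 FPKM in the sorted GLOBAL controls, which goes with the methods. According to the methods, all mice were perfused with PBS before dissection, and the gate holds myeloid cells, so neither kind of sample was collected for red cells.

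Hemoglobin is a tetramer of a pair of alpha chains and a pair of beta chains, each with a heme group that carries oxygen. Heme synthesis begins in the mitochondrion with 5-aminolevulinate synthase, of which Alas1 is the form of most tissues and Alas2 the form of erythroid precursors. Red cells lose their nucleus as they mature, but reticulocytes still carry globin and Alas2 mRNA. Low levels of globin mRNA have also been described in neurons and glia, so globin reads in brain tissue do not name a single cell type.

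The promoters of the 4 genes with values are printed here because they show how the members are related and which of them can share reads. Each run is the 220 bases before the start of the gene in RefSeq's annotation of GRCm38.p6, written 5′ to 3′ on the strand of the gene, with matches to 4 promoter motifs in capitals. The motifs were CACCC, the GATA letters (AGATAA, its variant AGATAG, the form TGATAA and its variant TGATAG), the letters CCAAT and the TATA letters (TATAAA, which can overlap with the other form, ATATAA), read on both strands. Hba-a1 begins after chr11:32283452-32283671 (+), Hba-a2 after chr11:32296272-32296491 (+), Hbb-bs after chr7:103827929-103828148 (-) and Alas2 after chrX:150547197-150547416 (+).
Hba-a1: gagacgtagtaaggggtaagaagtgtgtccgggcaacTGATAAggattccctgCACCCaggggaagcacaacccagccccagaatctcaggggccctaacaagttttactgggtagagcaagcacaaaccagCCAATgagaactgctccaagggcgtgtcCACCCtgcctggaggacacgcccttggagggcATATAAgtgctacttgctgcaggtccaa
Hba-a2: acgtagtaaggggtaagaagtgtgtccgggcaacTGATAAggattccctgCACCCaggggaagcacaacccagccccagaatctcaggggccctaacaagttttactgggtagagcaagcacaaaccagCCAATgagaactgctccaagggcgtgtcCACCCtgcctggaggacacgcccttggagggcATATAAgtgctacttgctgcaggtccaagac
Hbb-bs: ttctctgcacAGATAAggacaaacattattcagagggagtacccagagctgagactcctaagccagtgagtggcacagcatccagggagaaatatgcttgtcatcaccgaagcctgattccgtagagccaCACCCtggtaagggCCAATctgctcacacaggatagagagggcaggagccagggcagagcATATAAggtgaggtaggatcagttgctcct
Alas2: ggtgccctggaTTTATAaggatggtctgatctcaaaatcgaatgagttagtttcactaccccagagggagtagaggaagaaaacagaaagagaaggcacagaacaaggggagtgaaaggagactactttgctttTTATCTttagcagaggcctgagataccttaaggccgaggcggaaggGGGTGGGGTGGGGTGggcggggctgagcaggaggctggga

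In the 250 bases before the start, CACCC was found in front of all 5 genes, and the GATA letters in front of 4, with no match in that window of Hbb-bt. Over 32851 RefSeq promoters of that length, CACCC was found in 52% and the GATA letters in 26.5%, and 11.8% held both. CCAAT was found in front of the 4 globin genes and had no match in that window of Alas2 (33.8% of all promoters), and the TATA letters were found in front of all 5 genes (16.7% of all promoters). In Alas2, CACCC stands 3 times on the opposite strand, so that the printed gene strand reads GGGTG. These matches are letters in a window and were not tested as binding sites. The sequences upstream of Hba-a1 and Hba-a2 were identical over 247 aligned bases after a shift of 3 bases. The transcripts were near copies as well: of the 43-base windows of Hba-a1, the length of a sequenced read, 68.9% also occurred in Hba-a2, and of those of Hba-a2, 88.5% occurred in Hba-a1. Reads of these windows cannot be assigned to either copy, so the values of Hba-a1 and Hba-a2 are uncertain singly. Hbb-bs shared 66.2% of its windows with Hbb-bt. A further row is named Hbb-b1, a name from another haplotype of the beta globin locus than the one C57BL/6 mice carry. The locus behind that row was not settled, so its values are given beside those of Hbb-bs and it is not counted as a member.

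Depth was recovered from the steps of the FPKM values and was 4.57 to 10.6 M reads in the SVZ libraries, 5.24 to 10.4 M in the WM/LPS libraries and 2.21 to 5.37 M in the GLOBAL libraries. For SVZ control replicates 1 to 4, PLX3397 replicate 5 and recovery replicate 1, the recovered reads were nearly all even. Depth was divided by 2 in these libraries, and their read counts rest on that choice. A single SVZ library stood apart: control replicate 1 had 20946 FPKM of Ttr, the main secretory product of the choroid plexus, against at most 115 FPKM in the other 4 controls. The differences from the SVZ controls, the ratios and the correlations of the members are therefore also given without it, as are the calls of the gene lists that changed. In the SVZ, 11 of 12 microglia markers fell after 14 day PLX3397, with summed levels of 403 to 574 FPKM in control and 13.9 to 17.9 FPKM after PLX3397, and the sum was 29.5 to 47.4 FPKM at 5 day recovery. In bulk tissue, fewer cells of a type and less RNA per cell cannot be told apart.

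Hba-a1 and Hba-a2 encode the alpha chains. Hba-a1 had 16.99, 39.9, 18.5, 13.9 and 43.6 FPKM in the 5 control libraries, from 44 to 232 reads. It had 26.5, 26.3, 22.9, 29.9 and 31.2 FPKM after 14 day PLX3397 and 63.5, 47.3, 139, 41.1 and 213 FPKM at 5 day recovery. Recovery replicates 3 and 5 held the highest values, recovery replicate 4 lay below the highest control, and all 5 recovery libraries lay above the highest PLX3397 library. The mean was 26.6 ± 14.01 FPKM in control, 27.4 ± 3.26 FPKM after PLX3397 and 101 ± 74.0 FPKM at recovery (SD, n = 5 each), so recovery stood at 3.796 times control and 3.69 times PLX3397. On the log2(FPKM + 1) scale, on which changes of low genes are understated, the differences were 1.74 and 1.56.

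Hba-a2 had 15.3, 24.5, 14.8, 13.2 and 22.95 FPKM in control, 12.8, 12.7, 12.3, 17.3 and 20.96 FPKM after PLX3397, and 50.2, 30.2, 63.0, 41.1 and 91.4 FPKM at recovery. The recovery libraries did not overlap with either of the other groups. The means were 18.1 ± 5.17, 15.2 ± 3.802 and 55.2 ± 23.6 FPKM (SD, n = 5 each), with recovery at 3.04 times control and 3.63 times PLX3397. Since the 2 alpha rows can share reads, their FPKM were also summed per library, which gave log2 differences at recovery of 1.67 from control and 1.66 from PLX3397.

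Hbb-bs encodes an adult beta chain. It had 7.77, 8.90, 5.48, 3.24 and 7.73 FPKM in control, 3.48, 5.02, 4.71, 6.39 and 2.84 FPKM after PLX3397, and 22.97, 9.50, 22.6, 13.3 and 21.02 FPKM at recovery. The lowest recovery library, replicate 2, still lay above the highest control, control replicate 2 with 8.90 FPKM, so the groups did not overlap. The means were 6.62 ± 2.26, 4.49 ± 1.38 and 17.9 ± 6.12 FPKM (SD, n = 5 each), with recovery at 2.70 times control and 3.98 times PLX3397. These values rest on few reads, 12 to 47 in control, 10 to 39 after PLX3397 and 50 to 126 at recovery. The row Hbb-b1 stood at 7.51 ± 2.06, 6.39 ± 1.24 and 17.9 ± 7.78 FPKM in the same order (SD, n = 5 each), and its recovery libraries did not overlap with the others either.

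Alas2, which makes the first heme precursor in erythroid cells, had the smallest ratio between recovery and control of the 4 members with values. It had 1.96, 5.19, 2.95, 2.09 and 4.99 FPKM in control, 3.54, 3.001, 1.91, 4.33 and 2.75 FPKM after PLX3397, and 7.04, 4.29, 7.89, 7.10 and 10.4 FPKM at recovery. Of the 5 recovery libraries, 4 lay above all control and PLX3397 libraries, and recovery replicate 2 lay within both ranges. The means were 3.44 ± 1.56, 3.11 ± 0.902 and 7.34 ± 2.18 FPKM (SD, n = 5 each), with recovery at 2.14 times control and 2.36 times PLX3397. Alas1, the synthase of most tissues, stood at 27.5 ± 3.26, 25.3 ± 2.51 and 29.6 ± 4.67 FPKM, and was not called in either recovery contrast.

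**Figure D1:**
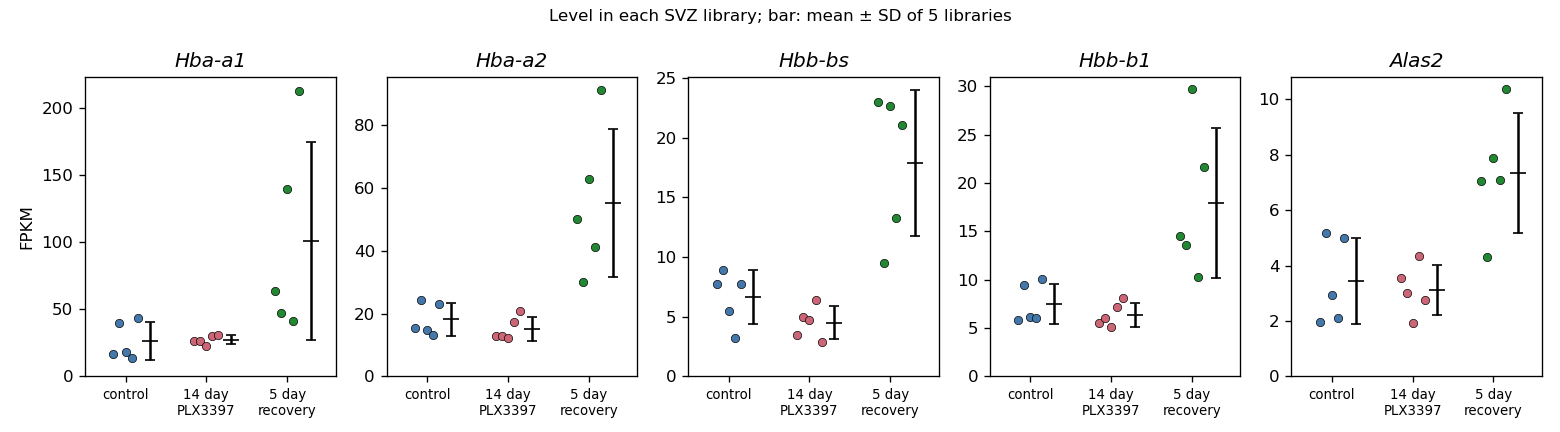
FPKM of the hemoglobin genes, Hbb-b1 and Alas2 in the SVZ groups, with a point for each library and a bar for the mean ± SD of 5 libraries. The recovery libraries of Hba-a2 (30.2 to 91.4 FPKM) and Hbb-bs (9.50 to 22.97 FPKM) lie above all libraries of the other groups, and recovery replicate 2 of Alas2 (4.29 FPKM) lies within their range.

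The 3 SVZ groups of 5 libraries give the background against which these counts stand. Of the 14151 genes tested, 1.12% had all recovery libraries above all control libraries and 2.11% had them above all PLX3397 libraries, against 2 of 4 members and 3 of 4 members. Since the members were picked in these contrasts, nothing is read from that. Without control replicate 1, the choroid plexus library, the log2 differences between recovery and control were 1.62 for Hba-a1, 1.45 for Hba-a2, 1.36 for Hbb-bs and 0.81 for Alas2. Over the omission of any single library, they lay between 1.40 and 1.98 for Hba-a1, between 1.29 and 1.68 for Hba-a2, between 1.10 and 1.49 for Hbb-bs and between 0.81 and 1.09 for Alas2. Without recovery replicate 5, the highest library of Hba-a1, the difference of Hba-a1 was 1.40.

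The contrast of 14 day PLX3397 and control compares 2 groups that both took part in the choice of members, as the groups that recovery was set against, so it is not independent of that choice. Its SE and p rest on a spread estimated over all 3 groups, recovery included. None of the 4 members was called by limma (0 of 4 with an adjusted p under 0.05, and 0 of 4 at an unadjusted p under 0.05), against 1.26% of all genes tested, and 6.12% of all genes at an unadjusted p under 0.05. The log2 difference was 0.18 (SE 0.40) for Hba-a1, -0.23 (SE 0.25) for Hba-a2, -0.45 (SE 0.26) for Hbb-bs and -0.07 (SE 0.24) for Alas2, with limma adjusted p of 0.999, 0.999, 0.944 and 0.999. The sign of Alas2 turned without control replicate 2, control replicate 5 or PLX3397 replicate 3, and that of Hba-a1 turned without control replicate 4. The sign of Hba-a2 turned when the 2 alpha rows were summed (0.02). Without control replicate 1, the log2 differences were 0.06 for Hba-a1, -0.28 for Hba-a2, -0.38 for Hbb-bs and -0.20 for Alas2, and none was called. In a fit of the 2 groups alone none of the 4 was called either. Differences of this size were within the spread between libraries. The median log2 difference over all genes was 0.01.

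Within a library, the levels of the members can be compared per length. The sum of the alpha rows over the sum of Hbb-bs and Hbb-b1 was 2.37 to 3.74 in control (median 2.91), 3.48 to 4.76 after PLX3397 (median 3.58) and 3.03 to 7.13 at recovery (median 3.50). All 3 groups thus had more alpha than beta FPKM in every library, and their ranges overlapped. The ratio of 7.13 belonged to recovery replicate 5, and the next recovery library stood at 3.87. Hba-a1 over Hba-a2 was 1.05 to 1.90 in control, 1.49 to 2.07 after PLX3397 and 0.998 to 2.33 at recovery. Hba-a2 over Alas2 was 4.60 to 7.81 in control, 3.63 to 7.62 after PLX3397 and 5.79 to 8.81 at recovery, with medians of 5.02, 4.24 and 7.12. The median of this ratio was thus highest at recovery, and the 3 ranges overlapped. Without control replicate 1, the control range was 2.87 to 3.74 for alpha over beta, 1.05 to 1.90 for Hba-a1 over Hba-a2 and 4.60 to 6.30 for Hba-a2 over Alas2, and 1 of the 5 recovery libraries, at 5.79, lay within that last range with the others above it.

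**Figure D2:**
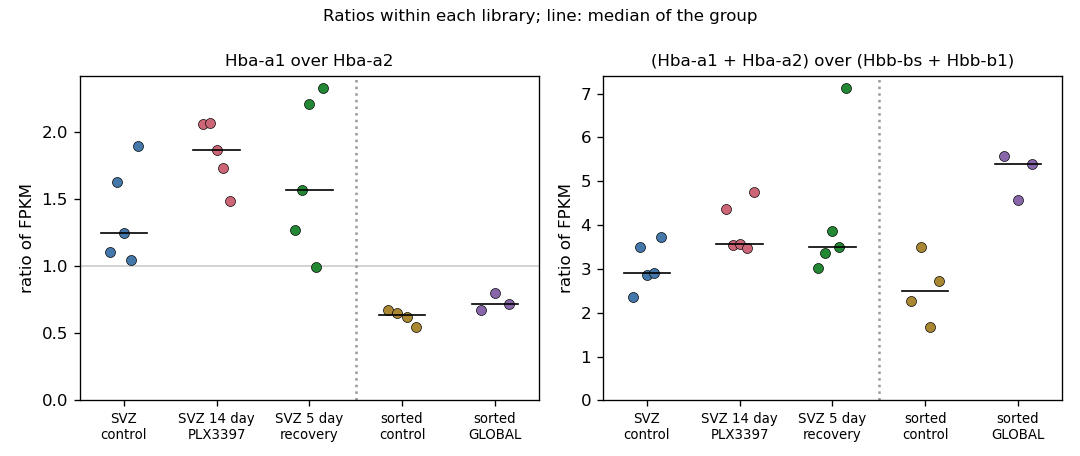
Ratios of FPKM within each library, of Hba-a1 to Hba-a2 (left) and of the alpha to the beta rows (right), with a point for each library of the SVZ and GLOBAL groups and a line at the group median. The ratio of Hba-a1 to Hba-a2 lies between 0.998 and 2.33 in the SVZ libraries and between 0.549 and 0.7998 in the sorted cells of the GLOBAL experiment.

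Among libraries of the same treatment, which were also part of the choice of members, 2 of the 6 pairs of members were correlated, both with Hba-a1. Over the 10 control and PLX3397 libraries, after the group mean was taken from each value on the log2(FPKM + 1) scale, Hba-a1 went with Hba-a2 (Pearson's r = 0.87, adjusted p = 0.00309; Spearman's rho = 0.82, p = 0.00549; 2-sided permutation tests). Hba-a1 went with Alas2 at the same r (r = 0.87, permutation adjusted p = 0.00309; rho = 0.79, p = 0.00874). Without the 2 libraries farthest from the median of Hba-a1, r was 0.79 and 0.74. The other 4 of the 6 pairs had r between 0.37 and 0.71 and permutation adjusted p between 0.0539 and 0.290, and Hbb-bs passed with no partner. Without control replicate 1, over 9 libraries, r was 0.86 for Hba-a1 with Hba-a2 and 0.85 for Hba-a1 with Alas2 (exact permutation adjusted p = 0.0063 and 0.0104). Hba-a1 with Hbb-bs, Hba-a2 with Alas2 and Hbb-bs with Alas2 then had r of 0.69, 0.71 and 0.72 (exact permutation adjusted p = 0.0481 for each), so the number of pairs that passed depended on that library. The alpha rows can share reads, and all values of a library share its depth.

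Heme synthesis needs further enzymes besides Alas2, and a list of 14 such genes and transporters held Alas1, Alad, Fech and the mitochondrial carriers Slc25a37 and Slc25a38. All 14 were tested in the SVZ, and none was called in any of the 3 contrasts (0 of 14, with 1, 1 and 2 genes at an unadjusted p under 0.05 in limma). Over all genes of the SVZ table, 6.12% had an unadjusted p under 0.05 between PLX3397 and control, 16.6% between recovery and control and 16.5% between recovery and PLX3397. Between recovery and control, 9 of 14 had a positive log2 difference, and the median was 0.10 against -0.01 over all genes. Ferrochelatase, encoded by Fech, which puts the iron into heme, stood at 31.7 ± 1.88 FPKM in control, 33.0 ± 1.503 FPKM after PLX3397 and 35.7 ± 8.34 FPKM at recovery (SD, n = 5 each). Alad, the second enzyme of the pathway, stood at 37.9 ± 5.53, 39.3 ± 2.17 and 41.6 ± 5.14 FPKM.

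Genes of the red cell membrane and its cytoskeleton were read from a list of 19, of which 10 were tested in the SVZ, and none was called (0 of 10 in each contrast, with 0, 1 and 1 at an unadjusted p under 0.05 in limma). Their median log2 difference between recovery and control was 0.01. Several of these 10, such as Epb41 and Slc2a1, are also made by other cells of the brain. The defining red cell genes Slc4a1 (band 3) and Epb42 were not analysed here in the SVZ, and neither was Ahsp, the chaperone of free alpha chains. A list of 25 genes of erythroid transcription and maturation had 14 tested members. None was called between recovery and control (0 of 14, with 2 at an unadjusted p under 0.05 in limma), against 1.27% of all genes. Between recovery and PLX3397, 1 of 14 was called, against 0.325% of all genes, and this gene was Ube2l6, a ubiquitin-conjugating enzyme that also transfers ISG15. Ube2l6 stood at 4.27 ± 0.419 FPKM in control, 3.66 ± 0.706 FPKM after PLX3397 and 7.27 ± 2.22 FPKM at recovery (SD, n = 5 each), with a log2 difference of 0.80 (SE 0.15, limma adjusted p = 0.0312) from PLX3397. The call was lost in 7 of 15 omissions of a single library, each of PLX3397 replicates 1 to 4, recovery replicates 4 and 5 and control replicate 3 (adjusted p up to 0.105). It was also lost in a fit of the 2 groups alone (adjusted p = 0.109).

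**Figure D3:**
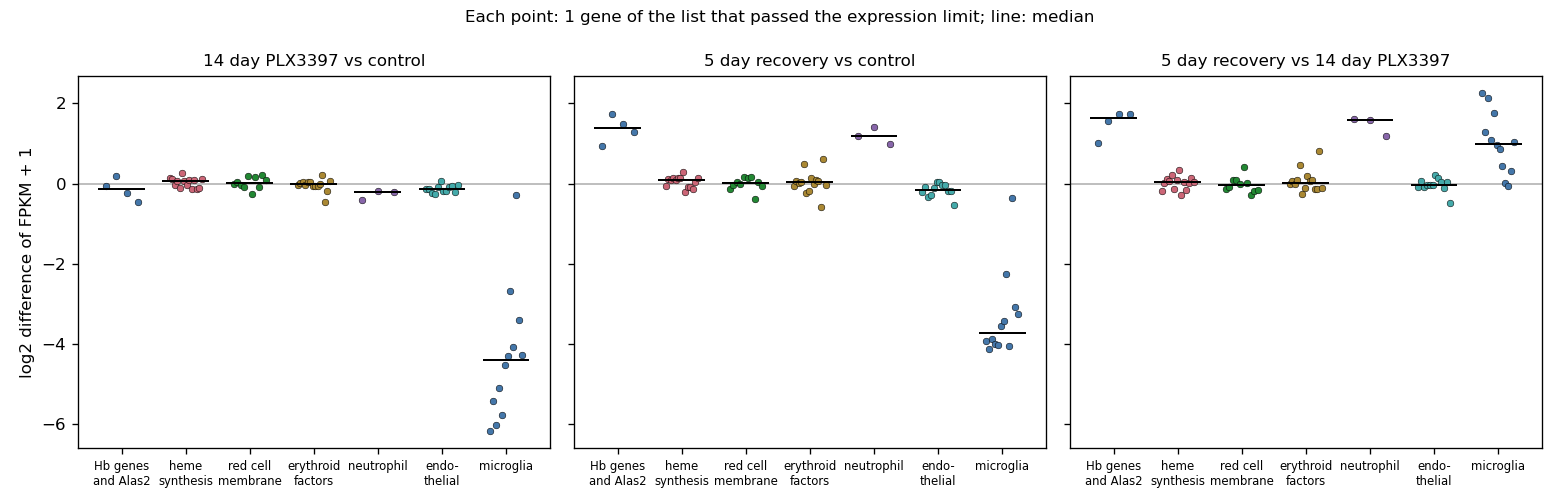
Log2 differences of FPKM + 1 in the 3 SVZ contrasts for the members and for the tested genes of the heme synthesis, red cell membrane, erythroid, neutrophil, endothelial and microglia lists, with a point for each gene and a line at the median. Between recovery and control, the members lie between 0.94 and 1.74, the median of heme synthesis is 0.10 and that of the red cell membrane list 0.01.

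Other globins were read beside the members. Neuroglobin (Ngb), the globin of neurons, stood at 33.2 FPKM in control, 42.8 FPKM after PLX3397 and 50.8 FPKM at recovery, cytoglobin (Cygb) at 36.5, 41.6 and 36.3 FPKM, and myoglobin (Mb) at 1.08, 1.17 and 1.36 FPKM (means, n = 5 each). None of the 3 was called in any contrast (limma; 0 at an unadjusted p under 0.05).

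Markers of other blood cells were measured beside the members. Of 13 neutrophil markers, 3 were tested, S100a8, S100a9 and Lcn2, and none was called. All 3 had a positive log2 difference at recovery, with a median of 1.19 from control (2 of 3 at an unadjusted p under 0.05 in limma) and of 1.58 from PLX3397 (3 of 3), against 16.6% and 16.5% of all genes at an unadjusted p under 0.05. S100a8, a subunit of calprotectin, had 0.958 ± 0.499 FPKM in control, 0.974 ± 1.32 FPKM after PLX3397 and 0.948, 6.50, 9.37, 2.11 and 6.14 FPKM at recovery (mean 5.01 ± 3.44; SD, n = 5 each; limma adjusted p = 0.158 against control). The summed level of the 4 listed neutrophil markers was 0.906 to 4.48 FPKM in control, 0.581 to 4.72 FPKM after PLX3397 and 2.52 to 24.1 FPKM at recovery. Recovery replicate 3 held the highest S100a8 and the next highest Hba-a1, whereas recovery replicate 2, with 6.50 FPKM of S100a8, held the lowest Hba-a2 and Hbb-bs of the recovery libraries. The part of neutrophil transcripts in the level of the members was not tested. The platelet gene Pf4 stood at 2.01 ± 1.29, 0.326 ± 0.358 and 0.391 ± 0.376 FPKM (SD, n = 5 each), with the highest level in control. Of 10 platelet markers, 3 were tested and none was called (1, 1 and 0 at an unadjusted p under 0.05 in limma for PLX3397 and recovery against control and recovery against PLX3397). Of 10 monocyte markers, 3 were tested and none was called (1, 1 and 0 in the same order). The summed level of the 4 listed monocyte markers was 5.02 to 32.1 FPKM in control, 4.54 to 6.72 FPKM after PLX3397 and 4.03 to 5.39 FPKM at recovery.

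Of 14 lymphocyte markers, 3 were tested, and 1 was called. After PLX3397 the other 2 tested markers, Cd4 and Trbc2, had a positive log2 difference (0.02 and 0.27, neither called), opposite to the called gene (median of the 3, 0.02). The called gene was Ighm, the heavy chain of immunoglobulin M, known from B cells, which also had 433 ± 76.1 FPKM in the sorted control microglia at 0 hr (SD, n = 3). In the SVZ, Ighm had 8.54, 10.6, 12.2, 16.2 and 17.2 FPKM in control, 2.98, 3.67, 3.91, 3.51 and 3.77 FPKM after PLX3397, and 9.85, 9.20, 9.54, 6.31 and 12.5 FPKM at recovery. Both the control and the recovery libraries lay above all PLX3397 libraries, and control and recovery overlapped. Ighm fell after PLX3397 (log2 difference -1.57, SE 0.17, limma adjusted p = 1.73e-05) and rose from PLX3397 to recovery (log2 difference 1.17, SE 0.17, limma adjusted p = 0.00323), and was not called between recovery and control (log2 difference -0.40, limma adjusted p = 0.268). Both calls held in all 15 omissions of a single library. The summed level of the 3 listed lymphocyte markers was 22.9 to 48.7 FPKM in control, 17.7 to 31.5 FPKM after PLX3397 and 19.1 to 31.9 FPKM at recovery, and the part of lymphocyte transcripts in the level of the members was not tested. None of the 12 endothelial markers was called (0 of 12), and their summed level was 221 to 251 FPKM in control, 180 to 237 FPKM after PLX3397 and 179 to 249 FPKM at recovery. Blood volume was not measured in any library, and the cells that held these transcripts cannot be told apart in bulk tissue.

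Genes that take up or break down heme and iron were read from a list of 17, of which 14 were tested in the SVZ. None was called in any contrast (0 of 14, with 1, 2 and 2 at an unadjusted p under 0.05 in limma). Hmox1, the inducible heme oxygenase, stood at 3.49, 3.01 and 3.33 FPKM in control, PLX3397 and recovery (means, n = 5 each), and the hemoglobin-haptoglobin receptor Cd163 at 1.28, 1.25 and 1.12 FPKM. Of 13 tested genes of the hypoxia list, 10 had a positive log2 difference after PLX3397 (median 0.09; 4 of 13 at an unadjusted p under 0.05 in limma), and the only gene called, Pgk1, fell (log2 difference -0.36, limma adjusted p = 0.0359), and none was called at recovery. The call of Pgk1 was lost in 8 of 15 omissions of a single library, each of control replicates 1 to 4 and PLX3397 replicates 1 to 4 (adjusted p up to 0.134; 0.0973 without control replicate 1).

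Over the 15 SVZ libraries, the mean profile of Hba-a1, Hba-a2 and Hbb-bs was compared with every gene tested. As a description, the 5 genes outside the members with the highest Pearson's r were Hbb-b1 (0.95), Ube2l6 (0.87), the proteasome subunit gene Psmd7 (0.86), the kinase gene Jak1 (0.84) and Abcf1 (0.83). Alas2 reached 0.93. Psmd7 stood at 146 ± 9.82 FPKM in control, 142 ± 3.40 FPKM after PLX3397 and 168 ± 7.42 FPKM at recovery (SD, n = 5 each), a far smaller rise in proportion than that of the hemoglobin genes. The 15 points share their 3 groups, so the difference between groups makes up part of each r.

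The GLOBAL experiment gave libraries that the choice of members did not use, of sorted CD11b+CD45int cells. Hba-a1 had 26.4, 17.8, 5.44 and 2.21 FPKM in the 4 control libraries and 1.32, 8.99 and 5.77 FPKM in the 3 GLOBAL repopulation libraries. Hba-a2 had 39.3, 27.4, 8.77 and 4.02 FPKM in control and 1.97, 11.2 and 8.02 FPKM in GLOBAL repopulation. Control replicates 1 and 2 were the highest libraries of both genes, and the groups overlapped.

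Hbb-bs had 8.76, 3.55, 2.97 and 0.644 FPKM in control and 0, 1.75 and 1.01 FPKM in GLOBAL repopulation, from 0 to 19 reads. In GLOBAL replicate 1, which was listed at 0, a single read was worth 0.578 FPKM. Alas2 had 2.08, 0.687, 0.960 and 0.520 FPKM in control and 0.746, 0.658 and 1.30 FPKM in GLOBAL repopulation, at 3 to 14 reads a library, and was under the limit for a test.

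None of the 3 members tested was called between GLOBAL repopulation and control (0 of 3 by limma, with 1 of 3 at an unadjusted p under 0.05). Over all 16651 genes, 0% were called, and 9.03% had an unadjusted p under 0.05. The log2 difference was -0.91 (SE 0.70, limma adjusted p = 0.699) for Hba-a1, -1.16 (SE 0.68, limma adjusted p = 0.626) for Hba-a2 and -1.22 (SE 0.53, limma adjusted p = 0.537) for Hbb-bs. All 3 were below 0 under the omission of any single library, between -1.47 and -0.30 for Hba-a1, between -1.70 and -0.55 for Hba-a2 and between -1.67 and -0.81 for Hbb-bs. Hbb-b1 stood at 9.19 ± 8.02 FPKM in control (n = 4) and 1.60 ± 1.04 FPKM in GLOBAL repopulation (SD, n = 3), and was not called either (limma adjusted p = 0.453). Spread was wide within the control group, in which Hba-a1 ranged from 2.21 to 26.4 FPKM.

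**Figure D4:**
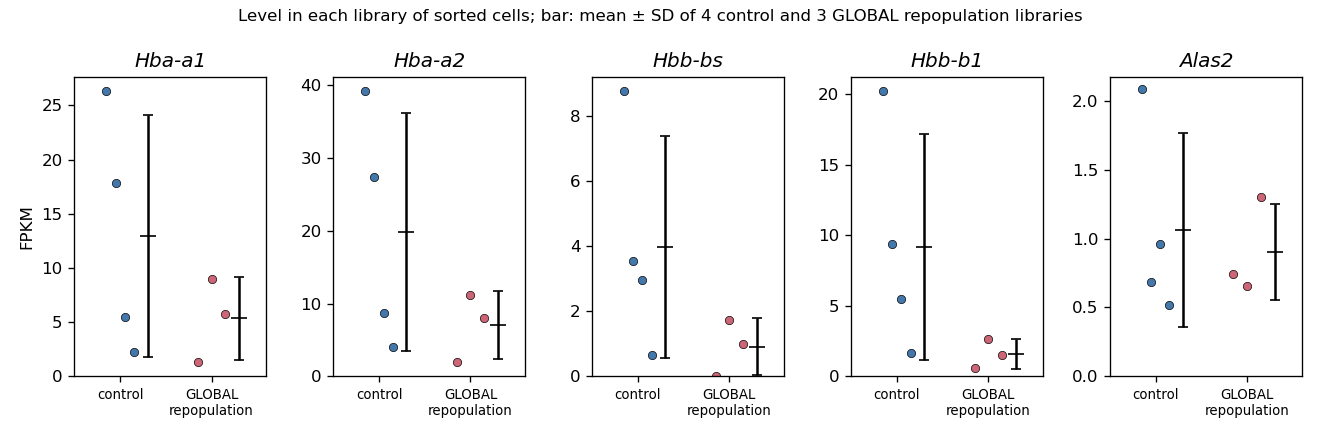
FPKM of the hemoglobin genes, Hbb-b1 and Alas2 in the sorted cells of the GLOBAL experiment, with a point for each library and a bar for the mean ± SD. Control replicates 1 and 2 hold the highest Hba-a1 (26.4 and 17.8 FPKM), and the other control libraries lie within or near the range of GLOBAL repopulation.

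Across the 7 sorted libraries the hemoglobin genes varied together. After the group means were taken out, r was 0.9995 for Hba-a1 and Hba-a2 (exact permutation adjusted p = 0.000595, from the smallest p that 7 libraries allow), 0.94 for Hba-a1 and Hbb-bs and 0.94 for Hba-a2 and Hbb-bs (exact permutation adjusted p = 0.000794 for both; 3 pairs). Spearman's rho was 1 for the alpha pair and 0.89 for the other pairs (exact permutation p = 0.000397 and 0.0123). Without the 2 libraries farthest from the median, r was 0.9987, 0.80 and 0.79. Alpha over beta, with Hbb-bs and Hbb-b1 summed, was 1.68 to 3.49 in control and 4.57 to 5.58 in GLOBAL repopulation, where the beta rows rest on few reads. Hba-a1 over Hba-a2 was 0.549 to 0.671 in control and 0.671 to 0.7998 in GLOBAL repopulation, below every SVZ library. Scaling by depth cancels in a ratio within a library, and both tables used the same lengths for these rows, 559 and 563 bases. The recovered reads showed the same order, with 50 for Hba-a1 and 75 for Hba-a2 in GLOBAL control replicate 1 and 940 and 406 in SVZ recovery replicate 5. Tissue and experiment cannot be told apart in this gap, and the alpha rows can share reads.

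Markers of other cells in the sorted libraries are given beside these values. All 13 neutrophil markers had a negative log2 difference between GLOBAL repopulation and control (0 of 13 called, 4 at an unadjusted p under 0.05 in limma; median -1.31), with summed levels of 2351 to 24595 FPKM in control and 1350 to 4949 FPKM in GLOBAL repopulation. S100a8 had 10782, 6887, 1227 and 866 FPKM in the 4 control libraries and 2124, 1294 and 630 FPKM in the 3 GLOBAL repopulation libraries. Control replicates 1 and 2, the highest in hemoglobin, were also the highest in this neutrophil gene, whereas GLOBAL replicate 1 was the next highest in S100a8 and the lowest in Hba-a1, at 1.32 FPKM. All 10 monocyte markers also had a negative log2 difference (0 of 10 called, 1 at an unadjusted p under 0.05 in limma; median -0.69), with summed levels of 187 to 1005 FPKM in control and 113 to 354 FPKM in GLOBAL repopulation. Of 11 endothelial markers, 1 had a positive difference (0 of 11 called, 3 at an unadjusted p under 0.05 in limma; median -0.19), and the sums were 120 to 147 FPKM and 90.8 to 111 FPKM. Of 13 lymphocyte markers, 4 had a positive difference (0 of 13 called, 3 at an unadjusted p under 0.05 in limma; median -0.16). Platelet markers were positive in 3 of 6 (0 of 6 called, 1 at an unadjusted p under 0.05 in limma; median 0.02). The part of these cells in the hemoglobin level was not tested. Of the red cell genes, the band 3 gene Slc4a1 was under the limit for a test, with 0.259, 1.195, 0.501 and 0.905 FPKM in control and 0.243, 0.245 and 0.213 FPKM in GLOBAL repopulation. The control libraries all lay above those of GLOBAL repopulation, and control replicate 1, the highest in hemoglobin, was the lowest control in Slc4a1.

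Since no gene of the GLOBAL table was called, the heme and red cell lists had no called member either. Heme synthesis had 14 tested genes (10 positive, median log2 difference 0.04), the red cell membrane list 14 (2 positive, median -0.16) and the erythroid list 18 (7 positive, median -0.08), with 0, 1 and 3 at an unadjusted p under 0.05 in limma. Hmox1 had 31.8 ± 5.43 FPKM in control (n = 4) and 51.7 ± 4.21 FPKM in GLOBAL repopulation (SD, n = 3), and was not called (limma adjusted p = 0.275). As a description over 7 libraries, the genes whose profile was most like the hemoglobin profile were Ambp (r = 0.98), BC049730 (r = 0.98), Slc28a2 (r = 0.98), Lmtk2 (r = 0.98) and Vmn2r50 (r = 0.97).

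In the WM/LPS experiment, where Alas2 is the only listed member, it was at most 1.23 FPKM in all 24 libraries. Control microglia had 0.226, 0.147 and 0.472 FPKM at 0 hr, 0.581, 0.791, 0.872, 0.352 and 0.0965 FPKM at 6 hr, and 0.241, 0.720, 0.119 and 0.248 FPKM at 24 hr after LPS. WM repopulating cells had 1.23, 0, 0.454 and 0.195 FPKM at 0 hr, 0.389, 0.858, 0.349 and 0.244 FPKM at 6 hr, and 0.341, 0.743, 0.551 and 0.0608 FPKM at 24 hr. The 6 groups overlapped. The library listed at 0, where a read was worth 0.0800 FPKM, and the highest library, at 18 reads, both belonged to WM repopulating cells at 0 hr. Group means ordered from the lowest were control 0 hr (0.282), control 24 hr (0.332), WM 24 hr (0.424), WM 6 hr (0.460), WM 0 hr (0.471) and control 6 hr (0.539 FPKM), and the libraries of all neighbours in that order overlapped. Without the expression limit, Alas2 was not called in any of the 9 contrasts, with log2 differences between -0.21 and 0.25 and limma adjusted p between 0.424 and 0.996. These values rest on 0 to 18 reads a library, and the size of change that could be detected at this depth was not tested.

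**Figure D5:**
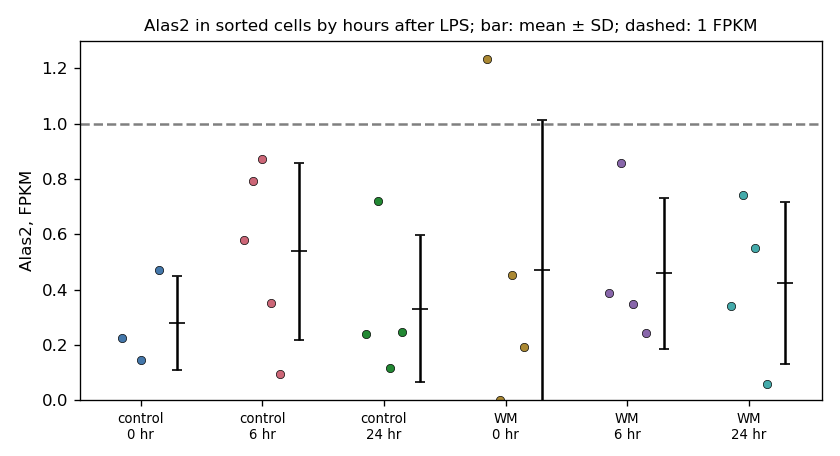
FPKM of Alas2 in sorted control microglia and WM repopulating cells at 0, 6 and 24 hr after LPS, with a point for each library, a bar for the mean ± SD and a dashed line at 1 FPKM, the limit for a test. A single library, of WM repopulating cells at 0 hr, lies above the line at 1.23 FPKM.

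Alas1 was the more abundant synthase in these cells, with group means of 69.4, 110 and 64.0 FPKM in control microglia and 61.3, 83.1 and 64.7 FPKM in WM repopulating cells at 0, 6 and 24 hr. It rose in control microglia between 0 hr and 6 hr after LPS (log2 difference 0.63, SE 0.19, limma adjusted p = 0.0105). In WM repopulating cells the same difference was 0.40 (SE 0.19, limma adjusted p = 0.0897), and the difference between the responses was not called. At 6 hr, genes of the heme synthesis list were called in both kinds of cells, as were many of all genes, so no theme is read from the counts. In control microglia, Uros, Fech, Urod and Ppox fell (4 of 14 lower and 1 higher, against 42.5% of all genes called). In WM repopulating cells, 6 of 14 fell, with Uros, Ppox, Fech and Cpox the largest, and 1 rose (against 38.8% of all genes called). Fech fell by 1.14 on the log2 scale in control microglia (limma adjusted p = 1.76e-06) and by 1.01 in WM repopulating cells (limma adjusted p = 7.32e-06). Markers of other cells moved at the same time. Of 10 monocyte markers, 8 rose in control microglia (median log2 difference 2.39) and 8 in WM repopulating cells (median 2.24), with summed levels of 126 to 384 FPKM at 0 hr and 1488 to 3037 FPKM at 6 hr in control microglia, and 153 to 465.96 and 1567 to 4019 FPKM in WM repopulating cells. Of 13 neutrophil markers, Lcn2 rose in both kinds of cells, and 2 fell in control microglia (Ly6g and Mmp9) and 7 in WM repopulating cells. The part of these cells in the heme synthesis genes was not tested. None of the 14 had a different response in the WM and the control groups at 6 hr or 24 hr (0 of 14 by limma at each time, with 2 and 3 at an unadjusted p under 0.05; 0.0237% and 0.0867% of all genes called, and 7.2% and 8.71% at an unadjusted p under 0.05).

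At 24 hr against 0 hr, Abcb6 and Tmem14c were among the genes of the list that rose in control microglia, and Fech fell (1 lower of 14, against 21.3% of all genes called in either direction). Between the WM and the control group at 0 hr, 1 of 14 was called, against 1.21% of all genes, and this was Cpox, an enzyme of the later steps (4.86 ± 0.141 FPKM, n = 3, against 13.4 ± 3.34 FPKM, n = 4; SD), with a log2 difference of 1.27 (SE 0.31, limma adjusted p = 0.0402). In the same contrast all 9 tested choroid plexus markers had a positive log2 difference (0 of 9 called, 4 at an unadjusted p under 0.05 in limma; median 0.86), and their list summed to 91.6 to 279 FPKM in control and 329 to 867 FPKM in WM repopulating cells, without overlap. The part of these transcripts in the level of Cpox was not tested. The call of Cpox was lost in 11 of 24 omissions of a single library (adjusted p up to 0.125), each of the 7 libraries at 0 hr, WM replicates 2 and 3 at 6 hr and WM replicates 1 and 3 at 24 hr. At 6 hr and 24 hr none of the 14 was called between these groups (0 of 14 by limma, with 2 and 3 at an unadjusted p under 0.05, against 0.323% and 3.97% of all genes called and 9.18% and 17.6% at an unadjusted p under 0.05). Of the erythroid list, Prdx2, a peroxiredoxin abundant in red cells and present in many others, was lower in WM repopulating cells than in control microglia at 24 hr, at 48.6 ± 8.69 FPKM against 87.1 ± 6.71 FPKM (SD, n = 4 each; log2 difference -0.84, limma adjusted p = 0.00122; 1 of 18 called, against 3.97% of all genes). In the same contrast, 1 of 13 neutrophil markers had a positive log2 difference (median -1.07), and Cxcr2 was called lower. Their sums were 6598 to 15586 FPKM in control and 3256 to 7433 FPKM in WM repopulating cells. The part of neutrophil transcripts in the level of Prdx2 was not tested.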

How the data were processed

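RNA was sequenced from SVZ tissue and sorted CD11b+CD45int cells. According to the study's methods, the authors prepared RNA with RNeasy, cDNA with Smart-seq2 and libraries with Nextera, sequenced paired ends of 43 bases, aligned them with STAR, counted reads with featureCounts of Rsubread and normalized them with edgeR and limma. The submitters' processing notes name mm10. The labels describe a different library protocol. The authors deposited FPKM values (called RPKM in the methods), in a table per experiment that was normalized separately, so groups were compared within a table. Samples were grouped by their titles.

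Genes with 1 FPKM or more in 3 or more samples were tested on log2(FPKM + 1) with limma 3.58.1 in R 4.3.3 (lmFit, eBayes with a trend, all groups of a table in a single fit, 2-sided, Benjamini-Hochberg adjustment over the genes tested, called at an adjusted p under 0.05). All groups share 1 estimate of the spread. Nothing in the sources states that replicates with the same number come from 1 animal or batch, and p-values measure the spread between these samples. Depth and reads were recovered from the whole steps of low values (99.8% of the SVZ low genes had whole steps, and at least as many elsewhere), and were used only to describe precision, with no counts tested. The columns of per-sample values were all used. Correlations of values centred on group means were tested by 100000 permutations, or exactly for 7 or 9 libraries. Python 3.11.15 with scipy 1.17.1 was used for these steps. The limma step was tested on simulated data with 200 changed genes. Of these, 200 were called at the SVZ size (14 day PLX3397 against control, 14151 genes). For WM against control at 0 hr (12684 genes) 195 were called, and for GLOBAL against control (16651 genes) 191. In the same order, 9, 9 and 7 unchanged genes were called as well. The size of difference that could be called at the levels of the members was not tested.

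The members and lists were chosen with earlier results of these data known. All members were named with every value, then at most 4 called genes of a list and contrast by the size of the log2 difference, defining blood markers, and the 5 genes most like the hemoglobin profile; Alas1, Fech, Alad, Hmox1, Cd163, Epb41, Slc2a1, Psmd7 and the other globins were added as background or after their values were seen. Alternatives were another pseudocount, a looser and a stricter filter, fits of the compared groups alone, the replicate number as a block, another scaling, no variance trend, omission of each library and summed gene copies. Values of some genes of the lists are not reported here.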

Additional observations from a re-analysis of the deposited data

Results flagged for a closer look

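In groups of 4 or 5 libraries, the highest or lowest value was compared with the others by its gap to the nearest library over the range. Of 71 such groups, 6 held a value past the limit, and chance alone gives about 1 in 20. The values are given without an explanation. Ttr had 20946 FPKM in SVZ control replicate 1, where the nearest control library had 115 FPKM, and 23.6 FPKM in SVZ recovery replicate 2, where the nearest had 11.1 FPKM. S100a8 had 3.22 FPKM in SVZ PLX3397 replicate 3, and the nearest library had 0.926 FPKM.

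Of the ratios between members, Hba-a2 over Hbb-bs was 7.38 in SVZ PLX3397 replicate 5 and 3.69 in the nearest library. Hbb-b1 over Hbb-bs was 2.86 in the same library and 1.58 in the nearest, and Hbb-bs had 10 reads there. Alpha over beta was 7.13 in SVZ recovery replicate 5 and 3.87 in the nearest. That library also held the highest Hba-a1, at 213 FPKM.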

How the results depend on the processing

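Of 1071 values recomputed under an alternative, 1033 were labelled unchanged. For a tested difference or a correlation, this meant the same direction and side of the threshold. For a count of called genes it meant a similar count. For a recovery difference it meant a move smaller than the SD of the recovery libraries. No member passed the expression limit in the WM/LPS experiment, so its counts of called members could hardly change. In the contrasts in which members were tested, no member was called under any alternative. The recovery differences of the members carry no test, and they kept their direction under all alternatives. Omitting a library turned 2 differences between 14 day PLX3397 and control: Alas2 ranged from -0.20 to 0.0700 (without control replicate 2; 0.0580 without control replicate 5, 0.0485 without PLX3397 replicate 3), and Hba-a1 from -0.0034 (without control replicate 4) to 0.39. Hba-a2 turned from -0.23 to 0.0159 when summed with Hba-a1. Without control replicate 1, 5 of 6 correlations between SVZ members passed (2 with it). The other changes were in counts of called genes of the heme synthesis and red cell lists. Between recovery and PLX3397, 1 gene fell to 0 in the fit of the compared groups alone (0 to 1 over omissions), and between recovery and control the count was 0 to 1 over omissions. Between WM and control it fell from 1 to 0 at 0 hr with a pseudocount of 0.1 (0 to 1 over omissions), rose from 1 to 2 at 24 hr with the stricter filter (1 to 3 over omissions), and in WM repopulating cells at 24 hr against 0 hr it rose from 6 to 10 in the compared groups alone. The cause was not tested.

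With the replicate block, 1 gene of these lists was called between recovery and control (Ube2l6; 0 without it) and 2 between WM and control at 24 hr (1 without it). The block changed the genes called over the whole table from 0 to 55 between GLOBAL repopulation and control. Whether the numbers pair the libraries was not settled. Deviations of same-numbered libraries had r of -0.15 to 0.49 in the SVZ (5 of 15 over 0.1), -0.19 to 0.27 in the WM/LPS libraries (7 of 55) and 0.06 to 0.14 in the GLOBAL experiment (2 of 3). Between libraries of different numbers, r was over 0.1 in 14 of 60 pairs in the SVZ, 18 of 184 in the WM/LPS libraries and 0 of 9 in the GLOBAL experiment. Recovery against control called 330 genes without recovery replicate 3 (180 with it). The sum of Hbb-bs and Hbb-b1, added after the values were seen, differed by 1.25 at recovery from control. The planned sum of Hbb-bs and Hbb-bt was not run. Few reads lie behind Hbb-bs (0 to 19 in the GLOBAL libraries) and Alas2 (0 to 18 in the WM/LPS libraries).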

Other observations

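Microglia and other phagocytes clear heme and iron, and the list of 17 genes for this was read in the WM/LPS experiment, where 14 were tested. At 6 hr after LPS, 6 rose and 4 fell in control microglia, against 42.5% of all genes called, and 5 rose and 2 fell in WM repopulating cells, against 38.8%. Of 10 monocyte markers, 8 rose at 6 hr in each kind of cell (median log2 difference 2.39 and 2.24). Among 13 neutrophil markers, Lcn2 rose in both kinds of cells, and 2 fell in control microglia and 7 in WM repopulating cells. The part of monocyte and neutrophil transcripts in these values was not tested. Hp, which encodes haptoglobin, the plasma protein that binds free hemoglobin, stood at 36.6 ± 31.5 FPKM at 0 hr (n = 3), 1221 ± 273 FPKM at 6 hr (n = 5) and 136 ± 62.4 FPKM at 24 hr (n = 4) in control microglia (SD), with a log2 difference of 5.51 at 6 hr (limma adjusted p = 1.62e-08). Hmox1, the inducible heme oxygenase, rose from 35.5 ± 6.31 to 234 ± 70.9 FPKM in control microglia and stood at 53.6 ± 5.74 FPKM at 0 hr and 232 ± 69.5 FPKM at 6 hr in WM repopulating cells (SD). The log2 difference at 6 hr was 2.65 in control microglia and 2.05 in WM repopulating cells (limma adjusted p = 1.78e-09 and 6.43e-08).

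Spic, a transcription factor that heme induces in macrophages, rose by 4.45 in control microglia and by 4.56 in WM repopulating cells at 6 hr on the log2(FPKM + 1) scale (limma adjusted p = 1.13e-08 and 5.66e-09). Slc40a1, the iron exporter ferroportin, fell by 3.26 and by 2.79 (limma adjusted p = 1.61e-09 and 1.34e-08). Fth1, the ferritin heavy chain, rose by 2.01 and by 1.504. None of the 14 genes had a different response in the WM and control groups (0 of 14 at 6 hr and at 24 hr by limma, with 0 and 2 at an unadjusted p under 0.05). At 24 hr, Slc40a1 was still lower than at 0 hr in both, by 1.67 in control microglia and 1.81 in WM repopulating cells.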
